A study of Mus musculus with 4 samples.

Results

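The cells described here were 518 T cells picked by their transcripts from liver single-cell libraries, out of 24030 barcodes kept and 24719 deposited. A kept barcode had at least 250 detected genes and at most 25% of its UMIs (unique molecular identifiers, 1 for each captured transcript) from mitochondrially encoded genes. A member had at least 1 UMI over Cd3d, Cd3e and Cd3g, the chains that carry the T cell receptor signal. It had at least 1 UMI of Cxcr6, the chemokine receptor of liver-resident lymphocytes, and at least 1 over Klrb1c (NK1.1), Itga1 (CD49a), Klra9 (a Ly49 receptor) and Fgl2. It had none of Cd8a, Cd8b1, Trdc, Cd163l1, Foxp3 or Cd79a, which mark CD8, gamma-delta, regulatory T and B cells. The gate took 167 and 174 cells from Cyr61 KO libraries 1 and 2, and 50 and 127 from Control libraries 1 and 2.

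All 4 libraries came from livers of male Cyr61fl/fl mice aged 24 weeks that had been on a NASH diet for 12 weeks, a diet that brings on fatty liver with inflammation. The genotype of 2 libraries was Cyr61 KO and that of 2 was Control. Both groups carry the floxed allele, and the labels state neither in which cells it was deleted nor whether each library is a separate animal. With n = 2 libraries per group, p-values therefore rest on the spread among libraries, which may be technical. The tissue had been stored in serum with DMSO, thawed and digested, and dead cells were removed on a column.

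Natural killer T (NKT) cells are T cells that recognise lipids presented by CD1d through a nearly fixed receptor, whose alpha chain in mice joins the segments Trav11 and Traj18. They depend on the factor PLZF, encoded by Zbtb16, and release IL-4 and interferon-gamma within hours of activation. In mouse liver they are abundant, patrol the sinusoids and use CXCR6 to stay there. Other T cells that settle in tissue also carry CXCR6 and CD49a and lack CCR7 and S1PR1, receptors for passage through lymph nodes and blood. CYR61 (gene symbol Ccn1) is a secreted matrix protein that binds integrins on inflammatory cells.

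The promoters of 4 genes are shown because they encode secreted products followed below: the chemokine XCL1, the cytokines interferon-gamma and IL-4, and granzyme B. Each line runs 5′ to 3′ on the gene's strand, from 250 bases before to 50 bases after the start of transcription, taken from RefSeq on GRCm38.p6. Capitals mark GGAAA, the core bound by NFAT and related factors downstream of the T cell receptor, and TGACTCA, the AP-1 site, on either strand (TTTCC and TGAGTCA when read on the opposite one). AGGTGT, a core read by T-box factors such as T-bet, was also searched on both strands and has no match in these 4. The positions are chr1:164935473-164935772 (minus strand) for Xcl1, chr10:118440796-118441095 (plus) for Ifng, chr11:53618616-53618915 (minus) for Il4 and chr14:56262285-56262584 (minus) for Gzmb.
Xcl1: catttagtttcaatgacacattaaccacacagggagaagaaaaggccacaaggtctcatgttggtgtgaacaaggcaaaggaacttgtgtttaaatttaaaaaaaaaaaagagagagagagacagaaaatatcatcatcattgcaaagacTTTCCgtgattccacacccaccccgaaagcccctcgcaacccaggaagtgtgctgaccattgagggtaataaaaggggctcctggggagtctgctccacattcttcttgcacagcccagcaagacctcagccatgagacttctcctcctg
Ifng: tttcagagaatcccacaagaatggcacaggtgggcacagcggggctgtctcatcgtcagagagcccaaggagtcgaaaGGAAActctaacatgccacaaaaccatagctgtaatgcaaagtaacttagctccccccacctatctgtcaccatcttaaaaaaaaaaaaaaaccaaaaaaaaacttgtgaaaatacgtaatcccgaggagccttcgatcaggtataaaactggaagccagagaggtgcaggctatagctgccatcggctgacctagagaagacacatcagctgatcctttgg
Il4: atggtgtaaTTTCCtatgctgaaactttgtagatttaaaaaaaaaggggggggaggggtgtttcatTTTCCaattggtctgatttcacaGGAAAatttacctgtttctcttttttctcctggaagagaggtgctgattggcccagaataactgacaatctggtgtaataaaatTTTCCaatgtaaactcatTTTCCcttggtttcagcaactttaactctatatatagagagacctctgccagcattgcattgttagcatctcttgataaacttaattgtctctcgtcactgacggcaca
Gzmb: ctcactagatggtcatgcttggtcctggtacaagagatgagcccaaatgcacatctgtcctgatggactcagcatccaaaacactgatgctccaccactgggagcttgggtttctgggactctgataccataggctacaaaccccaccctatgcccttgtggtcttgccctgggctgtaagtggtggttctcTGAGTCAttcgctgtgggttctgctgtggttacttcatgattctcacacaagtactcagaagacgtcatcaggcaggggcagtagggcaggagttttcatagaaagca
The Il4 window shown holds 5 matches to GGAAA, the Xcl1 and Ifng windows 1 each and the Gzmb window 0, and Gzmb has 1 match to TGACTCA. Il4 has another annotated start, with a window at chr11:53617289-53617588 that holds 1 match to GGAAA and is not printed. Among 32851 promoter windows of the same length, 61.3% hold GGAAA, 5.20% TGACTCA and 13.7% AGGTGT. Such matches describe letters and are no evidence of binding.

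Depth differed between libraries, and Control 1 stood apart. Total counts were 17187561 and 17925516 UMIs in KO, against 8290677 and 20537236 in Control, and kept barcodes had medians of 1913 and 2869 UMIs in KO, against 1225 and 2241 in Control. Ccn1 had 0 and 12 UMIs over all barcodes of KO, and 184 and 149 over those of Control. Between 6 and 22 barcodes were shared by a pair of libraries, and none of them was a member in both. Members held medians of 2876 and 3989.5 UMIs in KO, and 1633 and 3046 in Control, always above the other T cells of their library (2458.5 and 3606 in KO, 1426.5 and 2729 in Control). Summed over the members, 14 markers of stromal, mesothelial and endothelial cells reached 15.8 and 31.8 CPM (UMIs scaled to a common total of 1000000) in KO, and 1533 and 25.2 CPM in Control, with Kdr, Lrat and Reln at 0. The 16 markers of macrophages, monocytes and neutrophils summed to 613 and 169 CPM in KO, and 1047 and 362 CPM in Control, with Cd5l and Clec4f at 0. Between 25.9% and 33.9% of a library's members held a UMI of another lineage's marker, and their part in the results was tested only by leaving such barcodes out.

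The values that chose the members are given as a description. Cxcr6 stood at 1 UMI in 62.3% and 47.1% of KO members, and in 76.0% and 59.8% of Control members. Fgl2, a fibrinogen-like protein secreted by T cells and macrophages, was seen in 61.7% and 80.5% of KO members, and in 76.0% and 77.2% of Control members. Itga1 was seen in 54.5% and 45.4% of KO, and in 36.0% and 41.7% of Control members. Klrb1c, the NK cell receptor that gives NKT cells their name in mice, was seen in 35.9% and 39.7% of KO, and in only 6.0% and 16.5% of Control members. Members that entered through Fgl2 alone made up 23.4% and 27.6% in KO, and 58.0% and 44.9% in Control, so the gate took a different mixture from each group. Near the edge of the gate, 6 and 2 KO members and 3 and 1 Control members had a single UMI for each of the 3 conditions. Just outside it, 101 and 51 KO barcodes and 93 and 126 Control barcodes failed only the condition on Klrb1c, Itga1, Klra9 and Fgl2.

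The gap in Klrb1c was not confined to the gated cells. Among other T cells, 10.5% and 9.5% had a Klrb1c UMI in KO, against 2.8% and 3.0% in Control. Among Cd3-negative Cxcr6-positive innate cells it was 88.0% and 90.3% in KO, against 41.2% and 71.4% in Control, and B cells showed it in 0.4% to 1.0%. KO was thus the higher group among other T cells. It was also higher in gated and innate cells, but Klrb1c helped choose both. A Klrb1c or Ncr1 UMI was required of the innate cells, so these shares are description only. The shares of members are therefore given below also for a gate that leaves out Klrb1c, together with Klra9.

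The label NKT-like was checked against transcripts the gate did not use, and its receptor genes were detected in a minority of the cells only. An alpha-beta receptor chain (Trac, Trbc1 or Trbc2) was seen in 93.4% and 97.1% of KO members, and in 88.0% and 96.1% of Control members. The invariant segments Trav11 or Traj18 were seen in 5.4% and 9.2% of KO members, and in 2.0% and 2.4% of Control members. Zbtb16, which encodes PLZF, was seen in 7.2% and 15.5% of KO members, and in 4.0% and 7.1% of Control members. A gamma-chain constant gene (the Tcrg-C genes) was seen in 31.1% and 51.7% of KO, and in 22.0% and 29.1% of Control members, although Trdc was barred. Innate adaptors appeared too: Fcer1g was seen in 18.0% and 20.1% of KO, and in 18.0% and 23.6% of Control members, and Ncr1, an NK cell receptor, in 3.0% to 4.0% of KO and 4.0% to 11.0% of Control members. The cells are therefore called gated T cells from here on. A transcript present in a cell can be missed at this depth, so these are shares of cells with a UMI and not of NKT cells.

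The 2 effector markers of the label were frequent. Ifng, the interferon-gamma gene, had a UMI in 56.3% and 55.7% of KO members, and in 24.0% and 37.0% of Control members. In other T cells the share was 23.9% and 23.3% in KO, and 22.2% and 21.7% in Control, and in B cells 0.4% to 1.6%. Thinned to 1000 UMIs per cell, which left 150 and 170 KO members and 43 and 119 Control members, Ifng stood at 34.7% and 27.1% in KO, and 16.3% and 20.2% in Control, so the groups still did not overlap. Cd40lg, the CD40 ligand with which helper-type T cells act on B cells and macrophages, had a UMI in 32.3% and 35.1% of KO, and 18.0% and 34.6% of Control members. Between 7.1% and 9.0% of other T cells had one. Both Ifng and Cd40lg were seen in 19.2% and 21.8% of KO members, and in 4.0% and 14.2% of Control members. Cd4 was seen in 11.4% and 12.6% of KO members, and 2.0% and 17.3% of Control members. With CD8 barred, Cd4 was thus undetected in most of them at this depth.

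**Figure D1:**
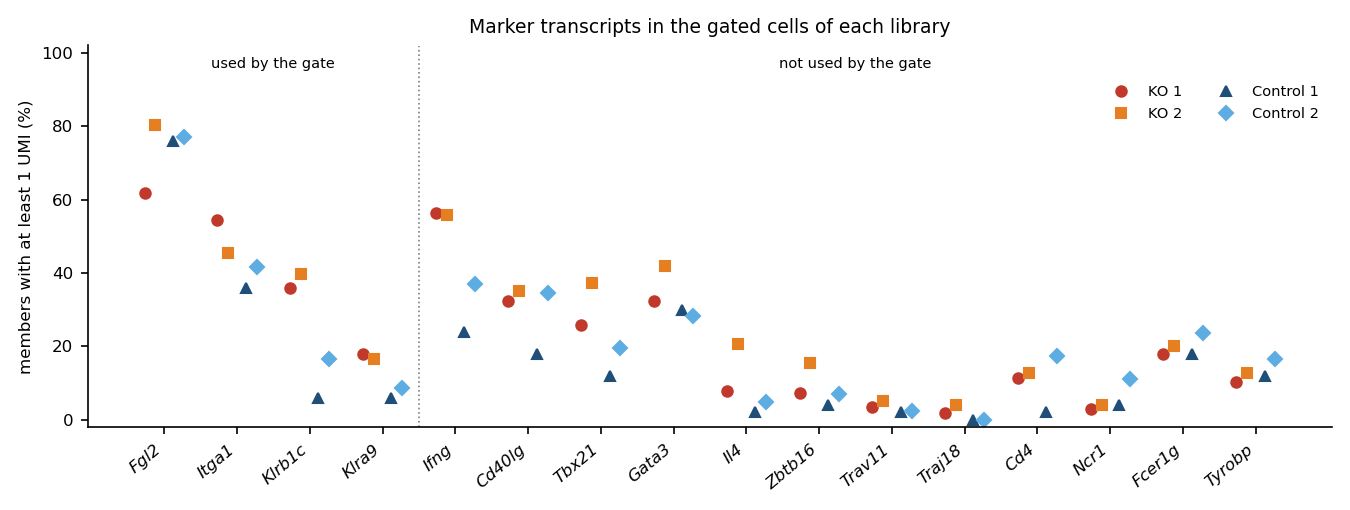
Percent of gated T cells with at least 1 UMI of each transcript in KO 1, KO 2, Control 1 and Control 2 (1 point per library), gate genes left of the dotted line and others right of it. Klrb1c was seen in 35.9% and 39.7% of KO and 6.0% and 16.5% of Control members, and Trav11 and Traj18 were near the bottom in all 4 libraries.

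Gated T cells made up a larger share of KO than of Control libraries, and the gap narrowed at equal depth. They were 2.33% (95% Clopper-Pearson interval 1.996 to 2.71) and 3.44% (2.95 to 3.97) of kept barcodes in KO, against 1.06% (0.788 to 1.39) and 1.79% (1.50 to 2.13) in Control. The intervals cover counting error only. Means were 2.88 ± 0.779% in KO and 1.43 ± 0.517% in Control (SD, n = 2 each), a ratio of 2.02, with both KO libraries above both Control libraries. The two-sided exact permutation p was 0.333, the smallest that 2 against 2 libraries allow. Of T cells, members were 5.83% and 7.46% in KO, against 2.46% and 3.81% in Control.

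These shares moved with depth and with the genes used for the third condition. When barcodes of at least 1000 UMIs were thinned to 1000, members were 0.949% and 1.24% in KO, against 0.893% and 0.539% in Control, and the ratio of the means was 1.53. Unthinned, the same barcodes gave 3.22% in KO and 1.81% in Control, a ratio of 1.78. With only Itga1 or Fgl2 as the third condition, a gate chosen after seeing the data, the means were 2.58% in KO and 1.36% in Control, a ratio of 1.90. With that gate and thinning together, KO had 0.788% and 0.950% against 0.893% and 0.521% in Control, so the groups overlapped (ratio 1.23, exact permutation p = 0.667). At equal depth with a gate free of Klrb1c and Klra9, KO and Control thus overlapped, although the KO mean was higher (0.869% against 0.707%). With 2 libraries per group, no setting could give an exact permutation p below 0.333.

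**Figure D2:**
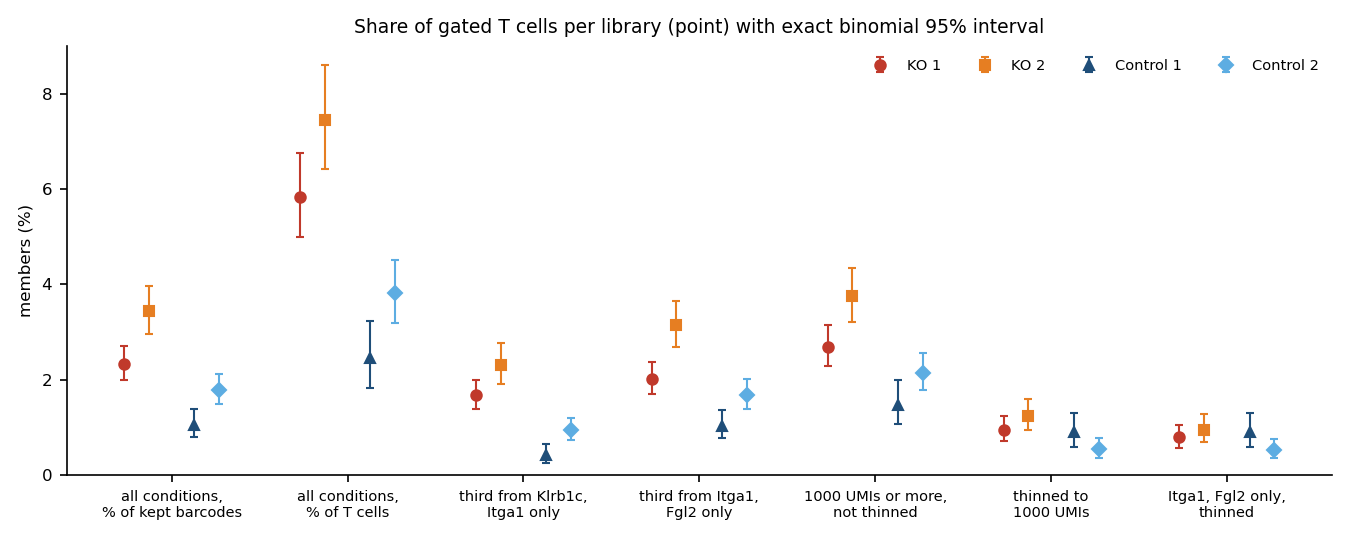
Gated T cells as a percent of barcodes in each library under 7 settings, with exact binomial 95% intervals. KO libraries lie above Control libraries for the full gate (2.33% and 3.44% against 1.06% and 1.79%). The points overlap at the right, where Klrb1c and Klra9 are not used and cells are thinned.

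Between KO and Control, few genes of the gated T cells passed the test. Counts were summed over the members of each library and tested with edgeR, leaving out the 14 gate genes. Of 5482 genes, 3 were higher in KO (0.0547% of those tested) and 15 lower (0.274%) at an adjusted p below 0.05, and 432 had an unadjusted p below 0.05. For all 18 genes the values of KO and Control did not overlap. The same libraries chose these genes, so this lack of overlap is a description only. The share without overlap among all genes tested is not given. The genes higher in KO were Ly6c2, Gzmb and Mmp9, and those lower included the chemokines Ccl3, Ccl4 and Cxcl2, the membrane proteins Tmem176a and Ramp1 and the checkpoint receptor Lag3. DESeq2 called 7 genes, all among the 18: Ly6c2, Ccl3, Ccl4, Tmem176a, Ramp1, Sdc4 and Il17a.

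Ly6c2 encodes Ly-6C, a surface protein of effector and memory T cells (chromosome 15, 75108000 to 75112000, GRCm38). It reached 1119 and 1067 CPM in KO, against 400 and 477 in Control, and was seen in 54.5% and 58.6% of KO members, against 28.0% and 35.4% of Control members. The 2 KO values lay close together, far above both Control values. The log2 fold change was 1.20 ± 0.21 (SE; edgeR adjusted p = 0.016). In other T cells Ly6c2 had 821 and 743 CPM in KO, and 669 and 580 CPM in Control, a log2 fold change of 0.33 ± 0.15 that was not called. The difference between those effects was itself called (0.90 ± 0.17).

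Gzmb encodes granzyme B, a protease of cytotoxic granules (chromosome 14, 56259000 to 56262000). It had 260 and 221 CPM in KO, against 95.2 and 91.7 in Control (mean 241 ± 27.6 and 93.4 ± 2.49 CPM, SD, n = 2 each). It was seen in 30.5% and 36.2% of KO members, against 10.0% and 8.7% of Control members, so the groups stood well apart in both measures. The log2 fold change was 1.28 ± 0.26 (edgeR adjusted p = 0.046). In other T cells it was 0.16 ± 0.18, and the difference of the effects, 1.04 ± 0.29, was not called (adjusted p = 0.071). Gzmb was the 1 gene called among 11 tested granule genes, whose median log2 fold change was 0.16, against -0.001 over all genes tested. Nkg7 and Srgn, also of the granule, had log2 fold changes of 0.16 ± 0.20 and -0.10 ± 0.20.

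Mmp9 encodes a secreted gelatinase that digests matrix (chromosome 2, 164940000 to 164960000). It had 100 and 147 CPM in KO, from 30 and 57 cells, against 0 and 27.5 in Control, from 0 and 10 cells. The 0 UMIs in Control 1 allow up to 28.6 CPM (3 counts), so Mmp9 was higher in both KO libraries than that library could hide. The log2 fold change was 2.44 ± 0.47 (edgeR adjusted p = 0.034). In other T cells Mmp9 had 11.7 and 7.82 CPM in KO, and 11.6 and 13.4 CPM in Control. In gated T cells of KO it thus stood above all other T cells and above Cxcr6-positive CD8 T cells, which had 22.0 and 1.15 CPM in KO and 0 and 6.87 CPM in Control. Neutrophils also express Mmp9. The neutrophil genes S100a8 and S100a9 had 5.91 and 9.85 CPM in KO 1, and 2.65 and 1.32 CPM in KO 2. In Control 1 they had 19.0 and 19.0 CPM, and in Control 2 73.3 and 64.2 CPM. Without barcodes holding other-lineage UMIs, the Mmp9 log2 fold change was 2.16 and was not called. The part of neutrophils in Mmp9 was not tested further.

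The calls for these 3 genes depended on the gate and on single libraries. With the third condition limited to Klrb1c or Itga1, their log2 fold changes were 0.90 for Ly6c2, 0.59 for Gzmb and 1.95 for Mmp9, and none was called. With only Itga1 or Fgl2 all 3 were called, at 1.11, 1.38 and 2.51. Without KO 2 none of the 3 was called, at 1.26, 1.41 and 2.18, and Gzmb was not called without KO 1 or without Control 2 either. The number of genes called was 44 without KO 1, 19 without KO 2, 54 without Control 1 and 130 without Control 2, and of the 18 genes 14, 9, 17 and 13 were called again, in that order (14 of the 18 were tested without Control 2).

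Chemokine genes fell in KO, on UMIs that came from few cells. Ccl3, which draws monocytes and T cells (chromosome 11, 83648000 to 83649000), had 21.7 and 34.4 CPM in KO, against 152 and 172 in Control (log2 fold change -2.60 ± 0.33, edgeR adjusted p = 0.002). In Control, 12 of 16 and 52 of 75 UMIs came from 1 cell in each library. Ccl4, its close relative, had 479 and 250 CPM in KO, against 857 and 887 in Control (-1.36 ± 0.26, edgeR adjusted p = 0.034). Of the 387 Ccl4 UMIs in Control 2, 190 came from 1 cell. Cxcl2, which draws neutrophils, had 5.9 and 4.0 CPM in KO, against 619 and 29.8 in Control, where 60 of 65 UMIs of Control 1 lay in 1 cell. These 3 were all that was called among 6 tested chemokines, whose median was -0.94. Xcl1 had 563 and 561 CPM in KO, and 638 and 843 CPM in Control, and was not called (-0.52 ± 0.21).

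Tmem176a, an ion channel-like protein of dendritic cells and of T cells that make IL-17 (chromosome 6, 48841000 to 48847000), had 72.9 and 106 CPM in KO, against 324 and 307 in Control. It was seen in 12.0% and 21.3% of KO members, against 32.0% and 29.1% of Control members (log2 fold change -1.87 ± 0.25, edgeR adjusted p = 0.002). In other T cells its log2 fold change was -1.82 ± 0.32, much the same size, and was not called (adjusted p = 0.072). B cells, which should lack it, had 2.1 and 3.7 CPM in KO, and 60.6 and 8.2 CPM in Control, highest in Control 1, and the part of free RNA in the difference was not tested. Ramp1, the subunit that makes the receptor for the neuropeptide CGRP (chromosome 1, 91180000 to 91225000), had 27.6 and 45.0 CPM in KO, against 181 and 135 in Control (-2.08 ± 0.33, edgeR adjusted p = 0.010). Ramp1 was the 1 gene called of 16 tested residency genes, whose median was -0.02. Neither gene rested on 1 cell: Ramp1 was seen in 9 and 19 KO members, and in 9 and 25 Control members.

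Lag3, an inhibitory receptor of stimulated T cells, had 1 UMI in each KO library, against 3 and 20 UMIs in Control from 2 and 15 cells. These were 1.97 and 1.32 CPM in KO, against 28.6 and 45.8 in Control, and it was called lower (edgeR adjusted p = 0.016). The difference of this Lag3 effect from that in other T cells was called as well (-3.58 ± 0.92, edgeR adjusted p = 0.028). The KO call for Lag3 was lost with DESeq2, with Klrb1c or Itga1 only, and without other-lineage UMIs. Leaving out either KO library also lost it. It was kept with Itga1 or Fgl2 only and with the replicate block. Of 12 tested costimulatory and checkpoint genes Lag3 was the only one called, and their median was -0.54. Ctla4 had -1.20 ± 0.34 and was not called (edgeR adjusted p = 0.339). Il17a had 0 and 2 UMIs in KO, against 9 and 18 in Control, where 9 and 16 of them lay in 1 cell. Krt83, a keratin gene, likewise had all 6 of its Control 1 UMIs in 1 cell. Without each library's top cell, 16 of the 18 genes still had KO and Control apart, and Krt83 and Il17a did not. As the genes were chosen by the test on these libraries, that count is a description too.

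Some of the 15 lower genes moved alike outside the gated cells. AY036118, a transcript from the ribosomal RNA region, had 625 and 175 CPM in KO, against 2646 and 2333 in Control. B cells had 566 and 156.5 CPM of it in KO, against 2886 and 2235 in Control. Its log2 fold change was -2.74 ± 0.38 in gated cells and -2.72 ± 0.58 in other T cells. Lars2, a mitochondrial leucyl-tRNA synthetase gene, had -1.58 ± 0.31 in gated cells and -1.43 ± 0.36 in other T cells. Mt1, a metallothionein of stressed cells, had 27.6 and 4.0 CPM in KO, against 809 and 73.3 in Control, and 56 of its 85 UMIs in Control 1 lay in 1 cell. Sdc4, a heparan sulphate carrier that can bind CYR61, had 5.9 and 7.9 CPM in KO, against 171 and 73.3 in Control. It was the 1 gene called of 6 tested on the list of CYR61 receptors, and the integrin chains Itgb1 and Itgb2 had 0.16 ± 0.22 and 0.16 ± 0.22. Selenop, a selenium transport protein made by hepatocytes and macrophages, had 33.5 and 27.8 CPM in KO, against 152 and 110 in Control, while B cells had 27.4 and 28.8 CPM in KO, and 32.8 and 20.8 CPM in Control.

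**Figure D3:**
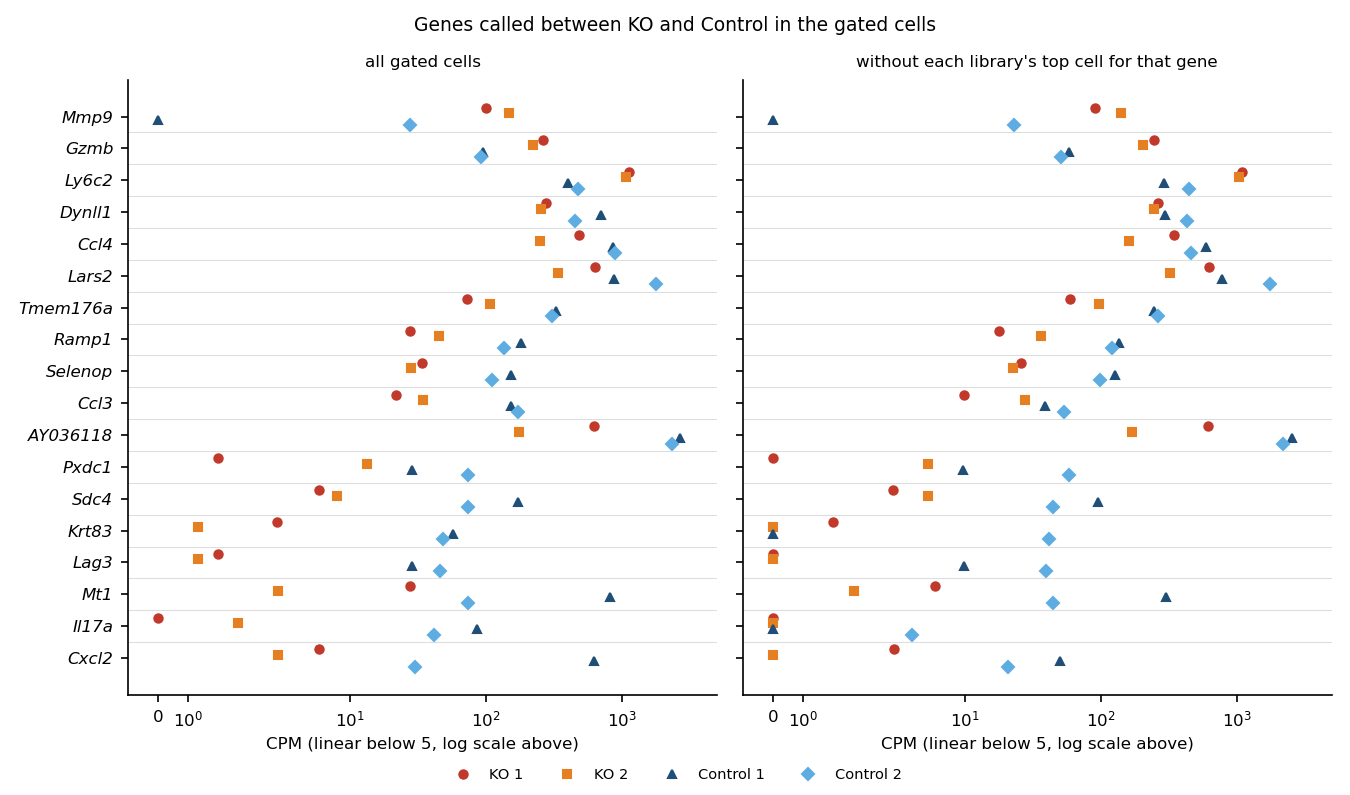
CPM of the 18 genes called between KO and Control in the gated T cells of each library, over all members (left) and without the cell with most UMIs of that gene (right). The axis is linear below 5 CPM and logarithmic above. Ly6c2, Gzmb and Mmp9 lie to the right in KO, and for Krt83 and Il17a the groups no longer separate on the right-hand panel.

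The cytokines that define NKT cells were not called between KO and Control. Il4 had 37.4 and 82.1 CPM in KO, from 19 and 62 UMIs, and 19.0 and 16.0 CPM in Control, from 2 and 7 UMIs (log2 fold change 1.79 ± 0.53, edgeR adjusted p = 0.423). Ifng had 670 and 437 CPM in KO, and 267 and 369 CPM in Control (0.64 ± 0.25, edgeR adjusted p = 0.567). For both the libraries did not overlap, but the differences did not pass over all genes. Cd40lg had 171 and 126 CPM in KO, and 105 and 172 CPM in Control, which overlapped (-0.13 ± 0.28, edgeR adjusted p = 0.956). Tbx21, encoding T-bet, had 126 and 123 CPM in KO, and 76.2 and 66.5 CPM in Control (0.76 ± 0.30, edgeR adjusted p = 0.572). None of 12 tested killer lectin-like receptor genes was called in gated cells. Klrk1 (NKG2D) had 0.75 ± 0.22 and Klrc2 0.81 ± 0.26 there. No gene was called on the lists for T cell receptor components, naive and exit genes, cytokine receptors, NF-kappaB, interferon-stimulated genes, apoptosis brakes, immediate early genes or cell cycle.

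The KO effect in gated cells was also set against that in other T cells, with library as a block. Of 10198 genes, 27 had a higher effect in gated cells (0.265%) and 17 a lower one (0.167%), and 628 had an unadjusted p below 0.05 (edgeR). Mmp9 (2.95 ± 0.48) and Ly6c2 were among the higher ones, with the interferon-stimulated genes Isg15, Ifi27l2a and Rtp4, 3 of 29 tested on their list. A higher effect can also come from a fall in other T cells. Ifi27l2a had -0.07 ± 0.24 in gated cells and -0.78 ± 0.20 in other T cells. Isg15 had 0.95 ± 0.38 and -0.31 ± 0.25, and Rtp4 1.45 ± 0.48 and -0.64 ± 0.14. None of the 3 was called in either population alone. Ccl3 (-2.52 ± 0.34), Ccl4, Cxcl2 and Lag3 were among the lower ones. The number of calls was 14 without KO 1, 4 without KO 2, 74 without Control 1 and 129 without Control 2, and 3 after thinning. Other calls fell on markers of other cells. MHC class II genes H2-Eb1, H2-Ab1, H2-Aa and Cd74 were 4 of the 8 tested on the dendritic cell list, whose 12 members summed to 660 and 250 CPM in KO, and 828 and 273 CPM in Control, over gated cells. Over other T cells the same list summed to 448 and 362 CPM in KO, and 1220 and 922 CPM in Control. Cd209a and Clec9a stood at 0 in gated cells, and the part of such cells in these differences was not tested.

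**Figure D4:**
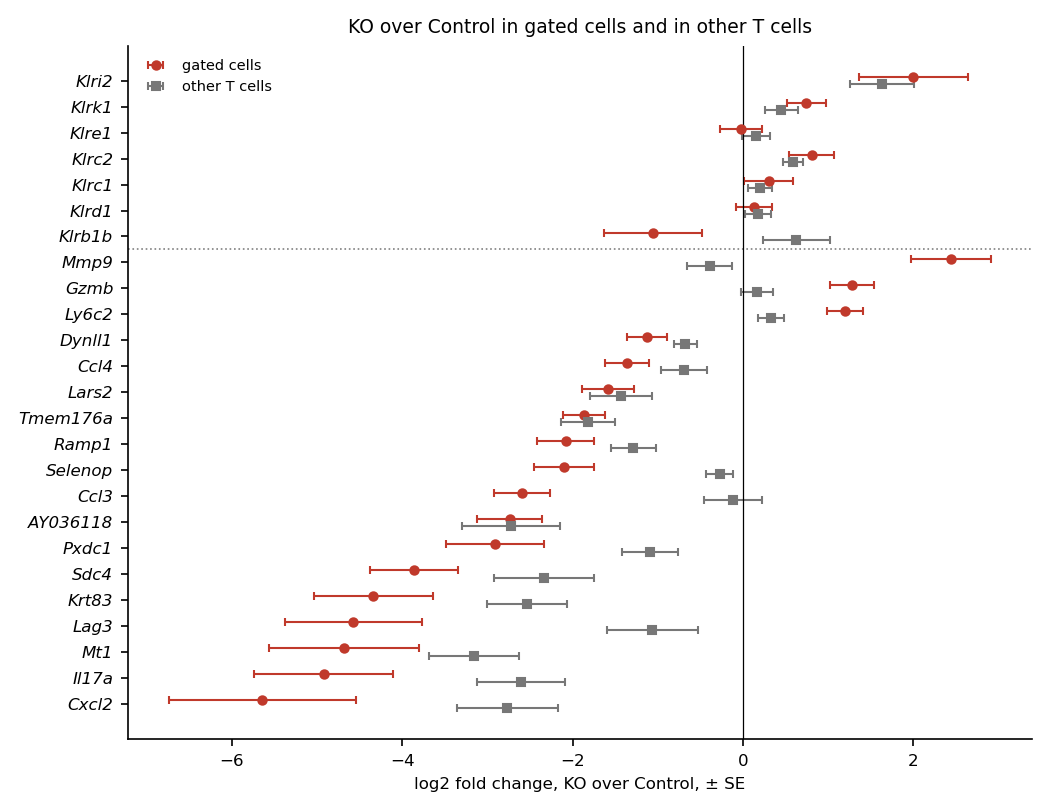
Log2 fold change of KO over Control with SE in gated T cells (circles) and other T cells (squares) for killer lectin-like receptor genes (above the dotted line) and the 18 called genes (below it). Mmp9 stands at 2.44 in gated cells and -0.39 in other T cells, while AY036118, Lars2 and Tmem176a have like values in both.

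Against other T cells of the same library, the gated cells carried the transcripts of resident effector cells and few of those of circulating naive cells. Other T cells were the 10047 Cd3-positive barcodes outside the gate, CD8, gamma-delta and regulatory T cells among them, so they differ in makeup by the gate itself. Of 10198 genes, 128 were higher (1.26%) and 216 lower (2.12%) by at least 2-fold at an edgeR adjusted p below 0.05, with library as a block. Without KO 2 the number called was 182.

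Genes for lymph node homing and exit were low in gated cells. Of 14 tested naive and exit genes 9 were lower and 0 higher, with a median log2 difference of -1.40, against -0.02 over all genes tested. Ccr7, the receptor that guides T cells into lymph nodes, had 9.85 and 7.94 CPM in gated cells of KO and 0 and 9.17 CPM in those of Control, against 213 and 255 CPM in other T cells of KO and 45.7 and 82.1 CPM in those of Control. Every library showed this direction, and the log2 difference was -4.70 ± 0.26. S1pr1, the receptor for exit from tissue, had -1.91 ± 0.18, and the naive cell factors Tcf7 and Lef1 -1.37 ± 0.14 and -1.42 ± 0.15. Eomes, a T-box factor of memory CD8 T cells and circulating NK cells, had -2.82 ± 0.29, with 13.8 and 2.65 CPM in gated cells of KO and 19.0 and 22.9 CPM in those of Control.

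Among secreted and surface effector genes, 7 of 20 tested cytokines and death ligands were higher and 1 lower, with a median of 0.62. Cd40lg had 171 and 126 CPM in gated cells of KO and 105 and 172 CPM in those of Control, against 24.1 to 55.6 CPM in other T cells of the 4 libraries (1.81 ± 0.17). Il4, the cytokine that NKT cells store as message, had 16.0 to 82.1 CPM in gated cells, against 1.95 to 8.44 CPM in other T cells (3.03 ± 0.37). Csf2, which encodes the myeloid growth factor GM-CSF, had 1.82 ± 0.28, and the death ligands Fasl and Tnfsf10 (TRAIL) had 1.05 ± 0.18 and 1.07 ± 0.18. Ifng passed on p but not on size (0.92 ± 0.13), and was higher in 3 of 4 libraries. The exception was Control 1, with 267 CPM in gated cells and 275 CPM in other T cells.

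Granule genes divided. Gzmb was higher in gated cells (1.17 ± 0.16), most so in KO, where it had 260 and 221 CPM against 66.3 and 77.0 CPM in other T cells, while Control had 95.2 and 91.7 CPM against 80.0 and 51.0 CPM. Gzma, Gzmk and Gzmm, granzymes of other killer and memory cells, were lower (-1.80 ± 0.28, -1.40 ± 0.31 and -2.90 ± 0.35). Gzma had 217 and 34.4 CPM in gated cells of KO, and 200 and 4.58 CPM in those of Control, a wide spread within each group. Of 13 granule genes tested these were the 4 called.

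Of 18 residency genes tested 4 were higher and 0 lower, with a median of 0.55. Xcl1, the chemokine that attracts cross-presenting dendritic cells, had 563 and 561 CPM in gated cells of KO and 638 and 843 CPM in those of Control, against 227 and 198 CPM in other T cells of KO and 303 and 228 CPM in those of Control. Its log2 difference was 1.26 ± 0.11. P2rx7, the ATP receptor that makes resident T cells prone to death during tissue digestion, had 2.25 ± 0.21, and Zfp683, encoding HOBIT, a factor of liver-resident lymphocytes in mice, 2.50 ± 0.49. Gpr34, a receptor for lysophosphatidylserine, had 2.03 ± 0.39.

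Of 18 NKT identity factors 4 were higher (Id2, Zbtb16, Slamf1 and Zfp683) and 2 lower (Slamf6 and Id3). Zbtb16 had 29.6 and 43.7 CPM in gated cells of KO and 19.0 and 22.9 CPM in those of Control, against 5.06 to 13.7 CPM in other T cells (2.09 ± 0.33). The Control values of Zbtb16 rested on 2 and 10 UMIs. With cells thinned to equal depth, it was seen in 3.33% and 4.71% of gated cells of KO, against 0.467% and 0.735% of other T cells. In Control these shares were 0% and 0.840%, against 1.66% and 0.516%. At equal depth a clear excess of Zbtb16 was thus seen in KO only. Id2, which holds back E-protein factors in innate-like lymphocytes, had 1.12 ± 0.10, and its counterpart Id3 -2.04 ± 0.29, though Id3 had 124 CPM in gated cells of Control 1 against 88.7 CPM in its other T cells. All 3 invariant receptor segments that could be tested, of 10 listed, were higher: Trav11 (3.21 ± 0.73), Traj18 (3.28 ± 1.06) and Trbv13-2, encoding the beta segment Vβ8.2 (1.72 ± 0.54). Trav11 had 13.8 and 13.2 CPM in gated cells of KO and 9.52 and 6.88 CPM in those of Control, against 0.195 to 2.53 CPM in other T cells. The Control values of Trav11 rested on 1 and 3 UMIs, as did those of Trbv13-2. Traj18 had 0 UMIs in gated cells of both Control libraries, so its difference rests on KO. Cytokine receptors followed for IL-2 (Il2ra, 1.40 ± 0.22) and IL-12 (Il12rb2, 1.64 ± 0.30, and Il12rb1, 1.31 ± 0.32), which drive interferon-gamma in NKT cells.

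**Figure D5:**
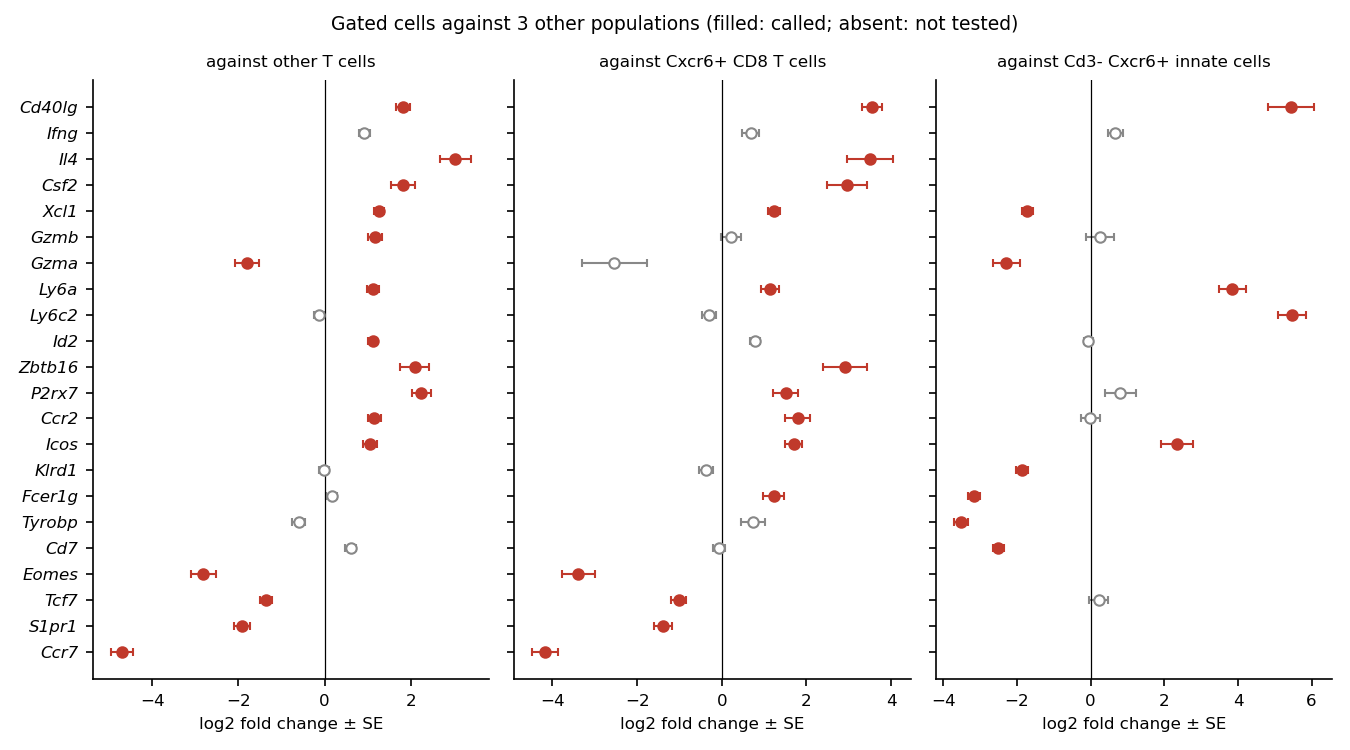
Log2 difference with SE of gated T cells over other T cells, over Cxcr6-positive CD8 T cells and over Cd3-negative Cxcr6-positive innate cells (3 panels, filled points called, open points not called, no point where not tested). Cd40lg is higher in all 3 panels (1.81, 3.55 and 5.43), and Xcl1 is higher against both T cell sets and lower against innate cells (1.26, 1.23 and -1.72).

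The T cells most like them by gate were 739 CD8 T cells with a Cxcr6 UMI (108 and 174 in KO, 73 and 384 in Control). Of 6085 genes, 101 were higher in gated cells (1.66%) and 59 lower (0.97%) by edgeR with the same thresholds. Cd40lg had 126 to 171 CPM in gated cells of KO and 105 to 172 CPM in those of Control, against 5.74 to 14.7 CPM in the CD8 cells (3.55 ± 0.24). Xcl1 (1.23 ± 0.14), Il4 (3.50 ± 0.54), Zbtb16 (2.92 ± 0.53) and the costimulator Icos (1.70 ± 0.19) were higher too. Their lists also held lower genes. Of 6 tested chemokines 3 were higher and 1 lower (Ccl5). Of 13 cytokines and death ligands 5 were higher and 1 lower (Tnfsf8). Of 16 NKT identity factors 4 were higher and 1 lower (Slamf6). Of 16 costimulatory and checkpoint genes 1 was higher (Icos) and 2 lower (Tox and Pdcd1). Tmem176b, neighbour and partner of Tmem176a, had 67.0 and 140 CPM in gated cells of KO and 400 and 231 CPM in those of Control, against 7.34 to 42.5 CPM in CD8 cells (3.32 ± 0.26). Naive and exit genes were lower for 7 of 13 tested and higher for 0, with Ccr7 at -4.17 ± 0.31. Eomes (-3.39 ± 0.38) and Gzmk (-2.67 ± 0.45) were lower as well, and Ifng was not called (0.68 ± 0.21, edgeR adjusted p = 0.066).

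Innate cells without Cd3 that carry Cxcr6 with Klrb1c or Ncr1, a pattern of liver-resident innate lymphocytes, numbered 101 (25 and 31 in KO, 17 and 28 in Control). Of 2066 genes, 37 were higher in gated cells (1.79%) and 49 lower (2.37%) by edgeR, and 182 were called without Control 1. Of 12 tested T cell receptor and coreceptor genes 6 were higher, led by Trac (5.26 ± 0.37). Trac had 352 to 521 CPM in gated cells and 0 to 19.1 CPM in innate cells. The gates largely set this, as a Cd3 UMI was required of gated cells and barred in innate cells. Cd40lg was higher at 5.43 ± 0.63, on 0 UMIs in 3 of 4 innate sums. Ly6c2 was higher at 5.47 ± 0.38, with 1119 and 1067 CPM in gated cells of KO and 400 and 477 CPM in those of Control, against 0 to 69.7 CPM in innate cells. All 9 tested killer lectin-like receptor genes were lower in gated cells, but Klrb1c was part of the choice of the innate cells. Klrd1 (CD94) had -1.86 ± 0.16, and the signal adaptors Fcer1g and Tyrobp -3.16 ± 0.16 and -3.51 ± 0.20. Xcl1 was lower here (-1.72 ± 0.15), with 1449 and 2714 CPM in innate cells of KO and 2609 and 2242 CPM in those of Control.

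Within the gated cells, those with and without a Klrb1c UMI differed in 18 genes, 11 higher (0.259% of 4239 tested) and 7 lower (0.165%) in the positive ones, by edgeR with library as a block. Klrb1c-positive members numbered 60 and 69 in KO, and 3 and 21 in Control, so Control 1 adds little, and without KO 2 the number called was 10. Klrd1, Klre1, Klrc1 and Klra1 were higher, 4 of 11 tested killer lectin-like receptor genes. The innate genes Fcer1g, Tyrobp and Ncr1 and the granzyme gene Gzma were higher too. DESeq2 called 2 of the 18 genes. In alpha-beta members without Ncr1, Fcer1g or Tyrobp UMIs, a setting added after seeing the data, 13 of the 18 were tested. Of these 1 was called, and none of the 4 receptor genes was. Klrd1 had 490 and 515 CPM in positive members of KO and 617 and 763 CPM in those of Control, against 254 and 231 CPM in negative members of KO and 304 and 197 CPM in those of Control (1.27 ± 0.23). Ccl4 was higher in positive members of every library (2.24 ± 0.26). Cd4 (-2.24 ± 0.47), the checkpoint gene Ctla4 (-1.62 ± 0.34), Slamf1 (-1.61 ± 0.40) and Cd40lg (-1.09 ± 0.29, edgeR adjusted p = 0.047) were lower. Ifng (0.19 ± 0.23) and Il4 (-0.38 ± 0.40) were not called. Among positive members Ly6c2 had 1456.5 and 1387 CPM in KO, against 926 (from 3 UMIs) and 879 in Control, and among negative ones 860 and 779 CPM in KO, against 383 and 377 in Control. KO was thus above Control in both subsets, and Klrb1c-positive members were above negative ones in all 4 libraries, which was not called (0.89 ± 0.25, edgeR adjusted p = 0.074). Gzmb had 230 and 216 CPM in negative members of KO, against 88.4 and 28.6 CPM in those of Control. In positive ones it had 299 and 227 CPM in KO and 309 and 347 CPM in Control, 1 UMI of it in Control 1. For Gzmb the gap between KO and Control was thus in the negative members, a difference that was not tested.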

How the data were processed

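For each of 4 libraries the authors deposited a matrix of raw UMI counts, one row per gene. Per the submitters' processing notes, Cell Ranger 3.1.0 and the mm10 build were used. No file held cell annotations, so members were gated on UMIs as described. Members, populations and 29 gene lists were chosen with earlier results of these data known. Of 32285 gene identifiers, 99.6% matched GENCODE M21 (GRCm38), the source of positions.

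Counts were summed over each population of each library and tested with edgeR 4.0.16 in R 4.3.3 (TMM, filterByExpr, glmQLFTest, Benjamini-Hochberg adjusted p below 0.05 over all genes tested). Between populations the absolute log2 fold change also had to reach 1, and library was a block. The 14 gate genes were left out of the genes tested (15 with Ncr1 for the innate cells). CPM are UMIs scaled to a common total of 1000000 per sum. An SE is the log2 fold change over the square root of the test's F. Shares were tested with the exact two-sided permutation test over libraries, with Clopper-Pearson 95% intervals. Thinning drew 1000 UMIs per barcode, and shallower barcodes were left out.

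Named genes were the called ones with the smallest p in each direction and the same side in every library, the label's markers and list members; some members of the lists are not reported here. No doublet caller was run, and barcodes with UMIs of 11 other-lineage genes were left out as an alternative. Other alternatives were DESeq2 1.42.0, relative log expression factors, no filter on low counts, at most 10% mitochondrial UMIs, other gates, a replicate block and each library left out. Same-numbered libraries were not shown to be paired, as only 2 pairs exist. Data with 200 changed genes were simulated for KO against Control over 5490 genes. There edgeR found 17% of the 2-fold changes and 88% of the 4-fold ones (4.545% of its calls false), against 4% and 40% by DESeq2. Every simulated gene had the same spread among libraries (dispersion 0.0234), and no UMIs were made to lie together in 1 cell. These rates may therefore not hold for the real counts. Summed counts of members differed between same-group libraries beyond sampling noise of single UMIs (chi-squared per degree of freedom 2.36 in KO and 2.89 in Control). UMIs that lie together in 1 cell also raise this value, so it cannot show that libraries are separate animals. All 4 libraries were counted as separate samples.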

Additional observations from a re-analysis of the deposited data

Results flagged for a closer look

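For 10 genes the effect of KO over Control in gated T cells differed from that in other T cells by edgeR's interaction term, and these are the 5 with the smallest p in each direction. Values are differences of log2 fold changes with SE, and the causes were not tested. Such a difference can come from a change in either population.

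Actb, the cytoskeletal actin gene, differed by 0.66 ± 0.09, with 13180 and 14125 CPM in gated cells of KO and 12860 and 12339 CPM in those of Control. Its log2 fold change was 0.03 ± 0.21 in gated cells and -0.60 ± 0.26 in other T cells. Lyz2, a macrophage and neutrophil gene, differed by 2.04 ± 0.29, and 130 of its 192 UMIs in gated cells of KO 1 lay in 1 cell. The histone gene Hist1h2ae differed by 2.95 ± 0.42, and 97 of its 114 UMIs in gated cells of KO 2 lay in 1 cell. Mmp9 differed by 2.95 ± 0.48, on 51 and 111 UMIs in gated cells of KO and 0 and 12 in those of Control. H2-Eb1, an MHC class II gene, differed by 1.96 ± 0.34, and 49 of 61 UMIs in gated cells of KO 1 lay in 1 cell. Its log2 fold change was -0.22 ± 0.65 in gated cells and -2.16 ± 0.26 in other T cells.

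Ccl3 differed by -2.52 ± 0.34, with 12 of 16 and 52 of 75 UMIs of the Control libraries in 1 cell each. Emb, which encodes the adhesion protein embigin, differed by -1.36 ± 0.19, with 274 and 261 CPM in gated cells of KO and 381 and 456 CPM in those of Control. Selenop differed by -1.87 ± 0.36, from 12 and 14 KO and 12 and 25 Control members with a UMI. Ncr1 differed by -2.33 ± 0.47, with 13.8 and 26.5 CPM in gated cells of KO and 57.1 and 73.3 CPM in those of Control. Fabp1, a hepatocyte gene, differed by -3.60 ± 0.73, and all 12 of its UMIs in gated cells of Control 2 lay in 1 cell.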

How the results depend on the processing

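Counts of genes called between KO and Control, 18 in the report, were 7 with DESeq2, 91 with no filter on low counts, 4 with the third condition from Klrb1c or Itga1 only, and 19 to 130 when a library was left out. With the replicate block 49 genes were called, all 18 among them; the numbers gave deviations correlated at r = 0.198 over 1520 genes, with only 2 pairs, which does not establish pairing.

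For the difference of KO effects from other T cells, 44 calls became 4 with DESeq2, 3 after thinning, 27 with Klrb1c or Itga1 only, 28 without type 17 cells (added after seeing the data) and 4 to 129 with a library left out. Against other T cells, 344 calls became 196 with DESeq2, 102 with no library block, 184 after thinning and 182 to 421 with a library left out. Against CD8 cells, 160 became 252 with no filter and 53 after thinning. Against innate cells, 86 became 220 with no filter, 39 after thinning and 82 to 182 with a library left out. No value could be had for alpha-beta members alone, where innate cells numbered 1 and 0 in KO, and 1 and 0 in Control. Between Klrb1c-positive and negative members, 18 became 2 with DESeq2, 37 with no filter, 8 after thinning, 3 for alpha-beta members without innate genes (added after seeing the data) and 10 to 26 with a library left out.

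The share of members, 1.46 percentage points higher in KO, was 3.51 of T cells, 2.44 among barcodes without other-lineage UMIs, 0.377 after thinning and 0.162 thinned with Itga1 or Fgl2 only (added after seeing the data); it was 0.908 to 2.01 with a library left out, KO above Control throughout.

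Signs reversed for Lyz2 without KO 1 (-0.21, up to 3.22 with another library left out), Hist1h2ae without KO 2 (-0.26, up to 4.54 with another left out), Cxcl2 with Klrb1c or Itga1 only (0.22) and Cd74 in alpha-beta members (-0.18), all differences of KO effects. Against other T cells they reversed for Klra4 (1.19) and Lyz2 (0.15) in alpha-beta members and Ly6d without other-lineage UMIs (0.066). Against CD8 cells they reversed for Cxcl2 with Klrb1c or Itga1 only (-0.019) and H2-Ab1 without other-lineage UMIs (-0.62). These reversals cover named genes only. Among all called genes, 3 differences of KO effects reversed without KO 2. Against other T cells 5 called genes reversed in alpha-beta members, 2 without other-lineage UMIs and 1 with Klrb1c or Itga1 only. The causes were not tested. Control 1, with 50 members, limits what any comparison with Control can show.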
